A study of Mus musculus with 24 samples.

Results

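The genes described here control where and when new actin filaments start, apart from the Arp2/3 complex itself. They comprise the nucleation-promoting factors that switch Arp2/3 on, the formins and WH2-repeat proteins that start filaments without it, the proteins that stabilise or take apart its branches, and the small GTPases above them. A list of 41 symbols was set by name, and members were the 37 of them with a mean raw count of at least 10 over the 24 libraries, among 55487 genes in the count table. The rule itself uses no measured difference, although the list was drawn up with earlier results of these data known. All 37 also passed the filter on low counts, which left 14535 genes for testing. The other 4 were Wasf1, Wasf3, Daam2 and Cobl, with mean counts of 1.13, 0.13, 0.75 and 0.88 and at most 5 counts in any library.

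Arp2/3 builds a new filament as a branch on the side of an existing one, and is idle until a nucleation-promoting factor brings it an actin monomer. WASP acts below Cdc42, the WAVE complex below Rac at the leading edge, and the WASH complex on endosomes. Formins instead stay on the growing end of an unbranched filament. Branched networks drive the protrusion and antigen sampling of dendritic cells, while formin-built filaments serve contractile bundles and fast migration.

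Bone-marrow-derived dendritic cells were grown in GM-CSF, a cytokine that drives myeloid differentiation, from mice 8 to 10 weeks old of both sexes. All groups carried the ARPC4 Flox/Flox alleles. The control mice had no Cre (CD11c-Cre -/-, WT below) and the others had 1 copy (CD11c-Cre +/-, KO below), which removes the floxed sequence in cells that express CD11c. Suspended cells were taken on days 7, 8, 9 and 10, and adherent cells were discarded. Each of the 8 groups held 3 mice, numbered 63, 65 and 66 in WT and 64, 67 and 68 in KO, and values per group are given in that order. Deletion starts only as cells acquire CD11c, and the labels name 2 library kits but do not tie either to a library. The design asks how the differentiation of control and KO cells compares, with the last day as the differentiated state.

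Libraries held 19952047 to 31049798 counts. Values are in CPM, the counts after TMM scaling to equal library totals, unless TPM, which also divides by gene length, is named. Arpc4, the targeted subunit, was at 192 ± 5.62, 260.2 ± 12.8, 228 ± 9.69 and 219.9 ± 18.9 CPM (mean ± SD, n = 3) in WT on the 4 days, and at 169 ± 13.8, 228 ± 4.28, 201 ± 2.51 and 181 ± 6.85 in KO. Its log2 fold change in KO lay between -0.28 and -0.18 (edgeR adjusted p = 0.18 to 0.69), so the targeted mRNA was lower in KO on each day without passing the test. Itgax, which encodes CD11c, was at 750 to 1660 CPM, and the antigen-presentation gene Cd74 at 778 to 4040 CPM. Flt3 and Cd209a, markers of more defined dendritic cell subsets, were low, at 0.76 to 6.7 and 0.26 to 8.7 CPM over the libraries, and Cd209a rose from day 7 to day 10 by 4.17 in WT (edgeR adjusted p = 1.3e-05) and 2.75 in KO (adjusted p = 0.00026). The macrophage markers Csf1r and Adgre1 were at 810 to 1390 and 459 to 805 CPM, so genes of macrophages were also expressed in every library. Among KO libraries the one with high Ddx3y, a Y-linked gene, was numbered 64, 68, 64 and 67 on successive days, which goes against the mouse numbers, whereas in WT it was mouse 63 each day. The fit used for the results takes no mouse number. Where a number is left out below, its libraries of every day are removed, and in KO these may come from different mice. In bulk RNA, fewer cells of a type and less RNA per cell cannot be told apart.

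The members spanned a wide range of abundance, and the share of the blood-cell form differed between pairs of related genes. By TPM, 16 members averaged at least 100, 16 lay between 10 and 100, and 5 lay under 10 (Nckap1, Diaph3, Daam1, Cttn and Arpin). Highest were Cdc42 at 698 TPM and Coro1a, a coronin of blood cells, at 510, followed by Hcls1 at 388, Rac2 at 381, Nckap1l at 369.8 and Brk1 at 324. The range of Cdc42 over libraries, 554 to 887 TPM, overlapped that of Coro1a, 280.3 to 744, and neighbours further down overlapped as well. Nckap1l (HEM1), the blood-cell scaffold of the WAVE complex, made up 98% to 98.6% of the summed TPM of Nckap1 and Nckap1l in the group means. Hcls1 (HS1), the blood-cell relative of cortactin, made up 96.2% to 98.4% of Hcls1 and Cttn. Was made up 89.5% to 94.2% of Was and its broadly expressed relative Wasl (N-WASP). In 2 other pairs the forms were closer: Rac2 made up 54.8% to 61.4% of Rac1 and Rac2, and Gmfg 40.8% to 58.2% of Gmfb and Gmfg.

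**Figure D1:**
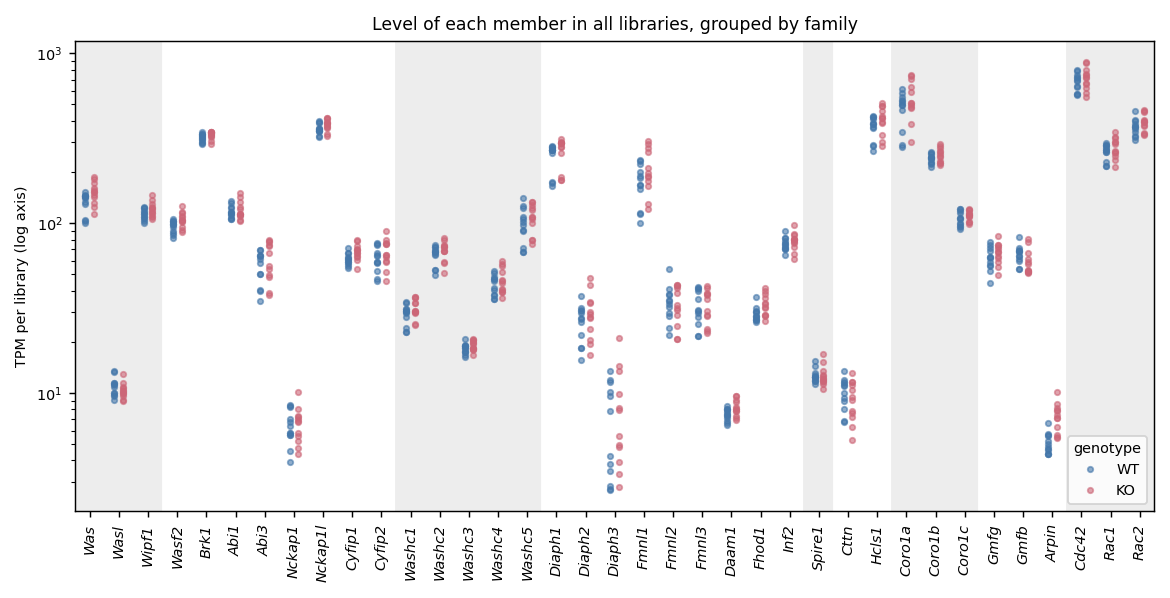
TPM of each of the 37 members (log axis) in all 24 libraries, with 1 point per library and members grouped by family in shaded and unshaded bands. Cdc42 and Coro1a lie at the top, and Nckap1, Diaph3, Daam1, Cttn and Arpin lie mostly under 10 TPM.

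No regulator in this group was called different between the genotypes on any day. The number of members called between KO and WT, at an edgeR quasi-likelihood p under 0.05 after Benjamini-Hochberg adjustment over all genes tested, was 0 of 37 on day 7, where 1.45% of all genes were called. It was also 0 of 37 on day 8 and day 9, with 0.00688% of all genes called on each, and 0 of 37 on day 10, with 0.0138% called. At an unadjusted p under 0.05 the members numbered 5, 1, 1 and 1 on the 4 days, or 13.5%, 2.7%, 2.7% and 2.7%, against 15.7%, 5.91%, 8.15% and 7.3% of all genes. DESeq2 called 1 member (2.7%) on day 7, where it called 3.6% of all genes, and 0 on the later days, where it called 0.117%, 0.619% and 0.296%. The absolute log2 fold change had a median of 0.082, 0.046, 0.055 and 0.06 over the members, against 0.15, 0.11, 0.11 and 0.11 over all genes. The 95% intervals had a median half-width of 0.18 on the log2 scale, or 14%, and 147 of the 148 intervals lay within 2-fold in either direction. The exception was Diaph3 on day 7. The CPM ranges of KO and WT did not overlap for 13 of 37 members on day 7 (35.1%, against 26.2% of all genes) and 3 on day 8 (8.11% against 9.39%). On day 9 this held for 3 (8.11% against 14.1%) and on day 10 for 0 (0% against 10.4%). The smallest share was thus on day 10 among the members and on day 8 among all genes.

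**Figure D2:**
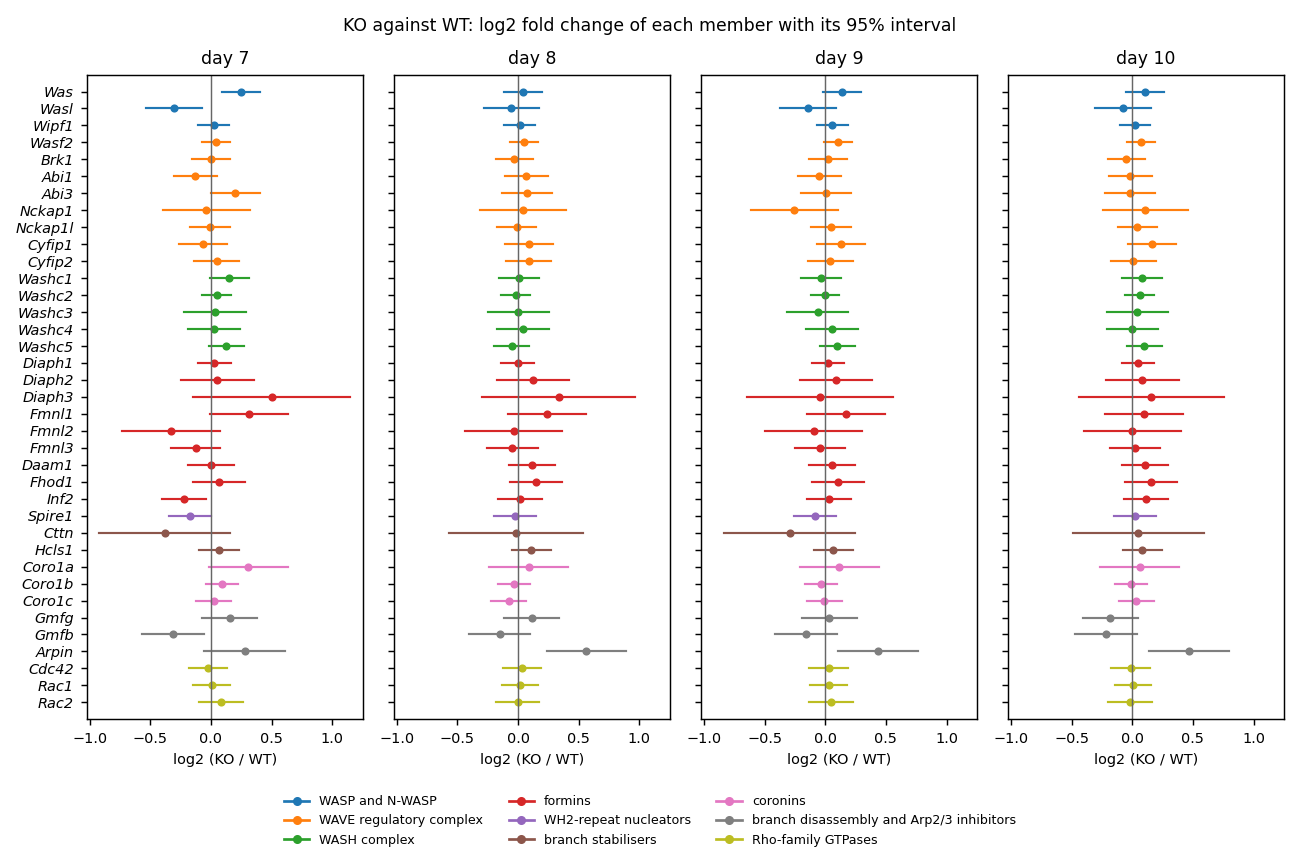
Log2 fold change of KO over WT (horizontal axis) for the 37 members on each day, with points for the estimate and bars for its 95% interval, coloured by family. Most estimates lie close to 0, and Arpin is the rightmost member on days 8, 9 and 10.

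The members nearest to the threshold on day 7 were 2 activators of Arp2/3 and a debranching factor. Was, the WASP gene (ENSMUSG00000031165.6, chromosome X, 8081453 to 8090498, minus strand, GRCm38), was at 90.7, 92.1 and 93.3 CPM in WT and at 97.9, 119.7 and 111 in KO, so the lowest KO library lay above every WT library. This difference was 0.25 on the log2 scale (SE 0.075, edgeR adjusted p = 0.099). Without the KO libraries numbered 64, which held the lowest KO value on day 7, it was 0.35 and passed (edgeR adjusted p = 0.017). DESeq2 also called it (0.27, adjusted p = 0.029). Of 16 alternatives 3 called it, and the log2 difference ranged from 0.2 to 0.35 over the 16. Wasl was at 26.7, 30.8 and 26.1 CPM in WT and 24.4, 20.9 and 22.3 in KO, again with no overlap but in the other direction (log2 fold change -0.31, SE 0.11, adjusted p = 0.17). Gmfb, a glia maturation factor that debranches Arp2/3 networks, was at 159.8, 163 and 156 CPM in WT and 127, 126 and 133 in KO, without overlap (-0.31, SE 0.12, adjusted p = 0.21). A fit on the day 7 groups alone called Gmfb (-0.3, adjusted p = 0.034). On day 10 the libraries of each of the 3 genes overlapped between the genotypes.

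Arpin (ENSMUSG00000039043.5, chromosome 7, 79925361 to 79935359, minus strand, GRCm38), an inhibitor that competes with the activators for Arp2/3, had the smallest p of all members on days 8, 9 and 10 without being called. On day 7 it was at 4.01, 4.07 and 3.77 CPM in WT and 4.55, 4.46 and 5.36 in KO. On day 8 the values were 3.84, 3.64 and 4.87 in WT against 5.63, 6.67 and 5.92 in KO, and on day 9 they were 3.95, 3.35 and 4.04 against 5.89, 4.63 and 4.84. On day 10 they were 2.96, 3.1 and 4.09 against 5.37, 3.94 and 4.69. The ranges were separate on the first 3 days, with KO higher, and overlapped on day 10. On the log2 scale KO exceeded WT by 0.28, 0.56, 0.43 and 0.46 (SE 0.16 on each day, edgeR adjusted p = 0.41, 0.49, 0.41 and 0.43); day 7 was added after the values were seen. Arpin was the least counted member by CPM, with 72 to 199 raw counts per library. The other members with the 3 smallest p on a day had log2 differences of -0.22 to 0.24 and edgeR adjusted p from 0.65 to 0.92.

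On day 8 these were 2 formins. Fmnl1 was at 289.5, 247 and 264 CPM in WT and 287, 389 and 267 in KO (0.24), with overlap. Fhod1 was at 44.8, 40.2 and 45.3 CPM in WT and 45.9, 49 and 49.6 in KO (0.15), with every KO library higher. On day 9 Wasf2, the WAVE2 subunit, was at 197, 179 and 182 CPM in WT and 207, 201 and 193 in KO (0.11), with overlap. Was on that day was at 106, 101 and 102 CPM in WT and 115, 114 and 111 in KO (0.14), again without overlap. The day 10 values of Gmfb were 141, 135 and 118 CPM in WT and 124, 114 and 101 in KO (-0.22), and those of Cyfip1, a Rac-binding WAVE subunit, were 204, 206 and 209 in WT and 207, 264 and 221 in KO (0.16), both with overlap.

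Time in culture moved many members, and their called share lay below that of all genes in 4 of the 6 comparisons of days within a genotype and above it in 2. This tally depended on the fit, which takes no mouse number. With the mouse number as a replicate block and KO numbers exchanged, the share lay above in every comparison except day 7 to day 10 in KO. There it was 40.5% against 44.1%, while in WT it was 48.6% against 44%. From day 7 to day 10 in WT, 12 of 37 members (32.4%) were called against 37% of all genes, 4 of them higher (18.9% of all genes) and 8 lower (18.1%). In KO 10 members (27%) were called (36.8% of all genes), 5 higher (19.7%) and 5 lower (17.1%). From day 7 to day 8 in WT 18 (48.6%) were called (43.4% of all genes), 10 higher (21.5%) and 8 lower (22%). The same step in KO gave 12, or 32.4% (42% of all genes), 6 higher (21.1%) and 6 lower (20.9%). From day 8 to day 10, a comparison added after the values were seen, WT had 10 called, or 27% (30.7% of all genes), 5 in each direction (16.2% higher and 14.5% lower), and KO had 10, or 27% (25.4%), 4 higher (13.6%) and 6 lower (11.7%). The first day therefore held at least as many called members as the whole interval. These comparisons share their day 7 or day 8 libraries. In all, 29 of 37 members (78.4%) were called in at least 1 of the 11 comparisons, against 70.2% of all genes, and the 8 called in none were Wipf1, Wasf2, Nckap1l, Washc3, Washc4, Fhod1, Arpin and Rac1.

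The split between higher and lower members depended on the scale. On log2(TPM + 1) with limma the median change of all genes from day 7 to day 10 was 0.21 for WT mice and 0.25 for KO mice. On the TMM-scaled counts these medians were -0.015 and 0.0033. The TMM factors, which the TPM scale does not take, were 0.877 to 0.886 on day 7 and 1.02 to 1.07 on day 10 in WT. In KO they were 0.895 to 0.969 and 1 to 1.13. On the log2(TPM + 1) scale 16 members (43.2%) were called in WT and 20 (54.1%) in KO, all of them higher, where 39.9% and 44.3% of all genes were called higher. The TPM calls of the step to day 8 in WT were 17 higher (35% of all genes) and 5 lower (11.8%), and in KO 22 higher (34.8%) and 5 lower (11.2%). In that KO step 27 members, or 73%, were called on the TPM scale against 46% of all genes. A small fall in CPM below is therefore a fall relative to other genes.

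Among the formins, the 3 largest sustained rises were those of Diaph3, Fmnl1 and Diaph1, which were higher on day 10 in both genotypes, while Fmnl3 was lower. Diaph1 (mDia1), an effector of RhoA and the most abundant formin by TPM, was at 396, 414 and 412 CPM in WT on day 7. It stood at 551, 547 and 549.8 on day 8 and at 489, 548 and 566 on day 10. In KO the values were 414, 408 and 425 on day 7, 551, 553 and 541 on day 8, and 514, 598 and 543 on day 10. Every library of day 8 and day 10 lay above every library of day 7 in the same genotype, so the step was complete after 1 day. The log2 fold change of day 10 over day 7 was 0.39 in WT (SE 0.064, edgeR adjusted p = 8.7e-05) and 0.41 in KO (SE 0.064, adjusted p = 6.6e-05), and both calls held in all 16 alternatives.

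Fmnl1 (ENSMUSG00000055805.15, chromosome 11, 103171107 to 103198901, plus strand), a formin of blood cells, was higher on day 10 than on day 7 in both genotypes. It was at 208, 183 and 213 CPM on day 7 in WT, and at 342, 304 and 366 on day 10. KO libraries held 214, 299.7 and 238 CPM on day 7 and 407, 306 and 369 on day 10. The days did not overlap in either genotype, although the KO library numbered 67 was the highest of its group on day 7 and the lowest on day 10. The change was 0.75 in WT (SE 0.15, edgeR adjusted p = 8e-04) and 0.52 in KO (SE 0.15, adjusted p = 0.011). The KO call was lost without the libraries numbered 64 (0.33, adjusted p = 0.21) or 68 (0.47, adjusted p = 0.09), and within the day 7 and day 10 groups alone (0.51, adjusted p = 0.05). By day 8 the change was 0.41 in WT (adjusted p = 0.038), a call lost without any 1 of the 3 WT mice (adjusted p = 0.095 to 0.16), and 0.33 in KO (adjusted p = 0.093). From day 8 to day 10 it was 0.34 and 0.2, called in neither genotype (adjusted p = 0.1 and 0.37).

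Fmnl3 (ENSMUSG00000023008.18, chromosome 15, 99317225 to 99370482, minus strand), a close relative of Fmnl1 that shapes filopodia, went the other way. It was at 79.7, 76.9 and 78.6 CPM in WT on day 7, at 41.1, 34.5 and 35.3 on day 8, and at 59.3, 47.9 and 49.3 on day 10. The KO values were 68.7, 74.3 and 72.6, then 35.8, 34.5 and 37.2, then 57.1, 45.2 and 56.4. All day 8 libraries lay below all others, and day 10 remained below day 7. The fall to day 8 was -1.08 in WT (SE 0.099, edgeR adjusted p = 5e-08) and -1 in KO (SE 0.099, adjusted p = 1.4e-07). Day 10 against day 7 gave -0.59 (adjusted p = 9.8e-05) and -0.44 (adjusted p = 0.0015), but on the TPM scale these were -0.3 (limma adjusted p = 0.055) and -0.14 (adjusted p = 0.37). Within the summed TPM of Fmnl1, Fmnl2 and Fmnl3, the Fmnl1 share in WT went from 61.6% ± 2.9 to 77.4% ± 3.3 (SD, n = 3) and the Fmnl3 share from 23.4% ± 0.61 to 9.74% ± 0.53 on day 8 and 11.6% ± 1.2 on day 10. In KO, Fmnl1 went from 69.4% ± 3.9 to 78.2% ± 3.3 and Fmnl3 from 19.6% ± 1.6 to 11.2% ± 0.56.

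Diaph3 (mDia2, ENSMUSG00000022021.14, chromosome 14, 86655367 to 87141235, minus strand), a formin used in cytokinesis, had the largest log2 change of any member between day 7 and day 10, and rose mainly after day 8. In WT it was at 5.74, 5.85 and 5.65 CPM on day 7 and 7.69, 6.16 and 6.9 on day 8, then at 19.8, 13.8 and 16.5 on day 9 and 22.2, 17.4 and 21.5 on day 10. KO libraries held 7.98, 9.52 and 6.94, then 8.24, 12.7 and 5.16, then 9.93, 22.2 and 16.4, then 31.9, 14.3 and 21.8. Days 7 and 10 did not overlap in either genotype, and the KO libraries of each day were more spread than those of WT. Day 10 against day 7 gave 1.83 in WT (SE 0.31, edgeR adjusted p = 0.00011) and 1.48 in KO (SE 0.3, adjusted p = 0.00069). A list of 22 genes of G2/M and mitosis moved with it: all 22 were called higher in both genotypes, with a median of 2.7 in WT and 1.8 in KO. Their summed level on day 7 was 234 to 302 CPM (WT) and 353 to 741 CPM (KO), and by day 10 it was 1340 to 1740 and 941 to 2150 CPM. On day 10 in KO the highest Diaph3 and the highest sum were both in the library numbered 64 and the lowest of both in 67, whereas in WT mouse 63 had the highest Diaph3 and mouse 66 the highest sum (1727 and 1742 CPM). On day 7 in KO the lowest Diaph3 was in the library numbered 68 and the lowest sum in 64. In WT on day 7 mouse 65 had the highest Diaph3 and the lowest sum. On days 8 and 9 the libraries of each genotype had the same order by Diaph3 and by the sum. Whether a changed share of dividing cells accounts for the change of Diaph3 was not tested.

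**Figure D3:**
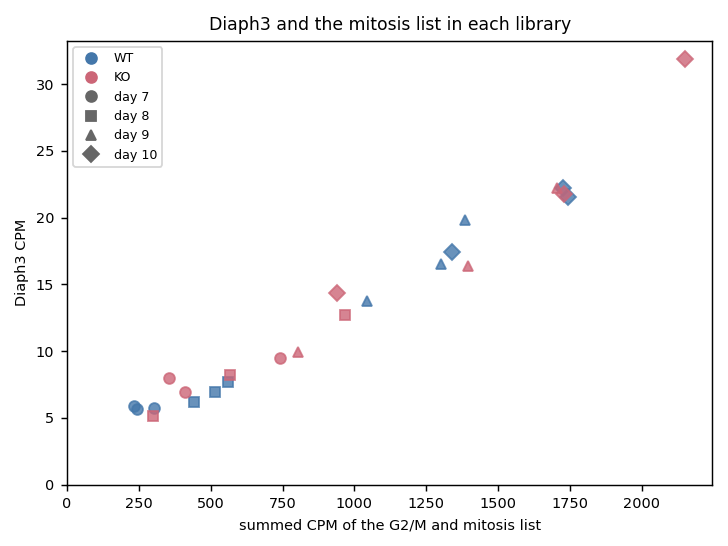
Diaph3 level (CPM, vertical axis) against the summed CPM of 22 G2/M and mitosis genes (horizontal axis), with 1 point per library, colours for genotype and symbols for day. Most libraries of days 7 and 8 lie at the lower left. The KO library numbered 67 on day 8 (12.7 CPM of Diaph3) lies beyond the KO library numbered 64 on day 9 (9.93 CPM). The 3 KO libraries of day 10 are spread from 14.3 to 31.9 CPM of Diaph3.

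The promoters of 3 formins are shown because Diaph3 and Fmnl1 were higher on day 10 than on day 7 and Fmnl3 was lower. Each runs from 250 bases before to 50 bases after the RefSeq start on GRCm38.p6, written in the direction of transcription. Capitals mark matches to the searched motifs, on either strand. Diaph3 is at chr14:87141175-87141474 on the minus strand, Fmnl1 at chr11:103170888-103171187 on the plus strand, and Fmnl3 at chr15:99370433-99370732 on the minus strand.
Diaph3: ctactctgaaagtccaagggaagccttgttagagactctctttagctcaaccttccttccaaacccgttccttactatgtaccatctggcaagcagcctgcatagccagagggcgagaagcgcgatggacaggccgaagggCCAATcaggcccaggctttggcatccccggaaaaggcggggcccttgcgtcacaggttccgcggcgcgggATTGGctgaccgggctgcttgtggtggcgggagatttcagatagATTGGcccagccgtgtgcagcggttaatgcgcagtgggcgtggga
Fmnl1: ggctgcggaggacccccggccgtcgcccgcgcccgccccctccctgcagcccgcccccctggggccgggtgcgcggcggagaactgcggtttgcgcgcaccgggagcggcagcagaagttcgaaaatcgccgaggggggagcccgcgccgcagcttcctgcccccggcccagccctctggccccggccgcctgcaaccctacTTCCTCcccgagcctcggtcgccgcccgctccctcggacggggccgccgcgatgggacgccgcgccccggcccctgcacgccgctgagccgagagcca
Fmnl3: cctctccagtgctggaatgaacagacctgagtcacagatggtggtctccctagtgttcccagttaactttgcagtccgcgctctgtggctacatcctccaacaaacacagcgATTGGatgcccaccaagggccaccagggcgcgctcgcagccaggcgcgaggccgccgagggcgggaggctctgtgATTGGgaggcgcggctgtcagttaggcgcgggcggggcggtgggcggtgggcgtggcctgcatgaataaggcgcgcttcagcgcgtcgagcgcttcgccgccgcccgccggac

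In these windows CCAAT, the core of the NF-Y site common in promoters of mitotic genes, occurred 3 times for Diaph3 and 2 times for Fmnl3. GAGGAA, the core bound by the myeloid factor PU.1, occurred 1 time for Fmnl1. Over all 32851 promoters of the same length, 37.4% held CCAAT and 28.3% held GAGGAA, so both are common letters. The 26 members with an entry have 34 promoters among them, of which 11 (32.4%) held CCAAT and 13 (38.2%) held GAGGAA. The E2F site TTCCCGC was in 4.6% of all promoters and in 3 of the 34, those of Fhod1 and Inf2, and the CHR letters TTTGAA in 17.9% and in 1, that of Wasf2. The CArG box of serum response factor was in 1.63% and in 0 of the 34. Of these motifs a CArG box can contain the letters CCAAT. These matches are descriptions of the letters in the window.

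Fmnl2, Diaph2, Daam1, Inf2 and Fhod1 completed the formins. Diaph2 rose from day 7 to day 8 by 0.7 in WT (SE 0.14, edgeR adjusted p = 0.00054) and 0.77 in KO (SE 0.14, adjusted p = 0.00024). On day 8 it stood at 114, 138 and 119 CPM in WT and 154, 157 and 90.9 in KO, so the KO library numbered 68 lay well below the other two. Fmnl2 rose on day 8 in KO (0.72, SE 0.19, adjusted p = 0.0051), a call lost without the libraries numbered 68 (0.65, adjusted p = 0.055). Inf2, a formin that can also sever filaments, fell by day 10 in WT (-0.39, SE 0.087, adjusted p = 0.0015), and the difference of its change between genotypes was 0.33 (adjusted p = 0.63). On the TPM scale the fall of Inf2 was -0.11 (limma adjusted p = 0.29). Daam1 was lower in WT on day 10 (-0.29, adjusted p = 0.014), which did not hold without mouse 65 (-0.19, adjusted p = 0.23), with no filter on low counts (-0.28, adjusted p = 0.087) or on the TPM scale (-0.012, limma adjusted p = 0.94). Fhod1, at 42.6 to 51.3 CPM in the group means, was called nowhere, and its locus overlaps Tmem208 on the opposite strand. Spire1, the WH2-repeat member, was lower on day 8 in WT (-0.27, adjusted p = 0.012), and leaving out mouse 63 (-0.22, adjusted p = 0.14) or 66 (-0.25, adjusted p = 0.073) ended that call, as did the TPM scale (-0.045, limma adjusted p = 0.75) and no filter on low counts (-0.26, adjusted p = 0.058).

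**Figure D4:**
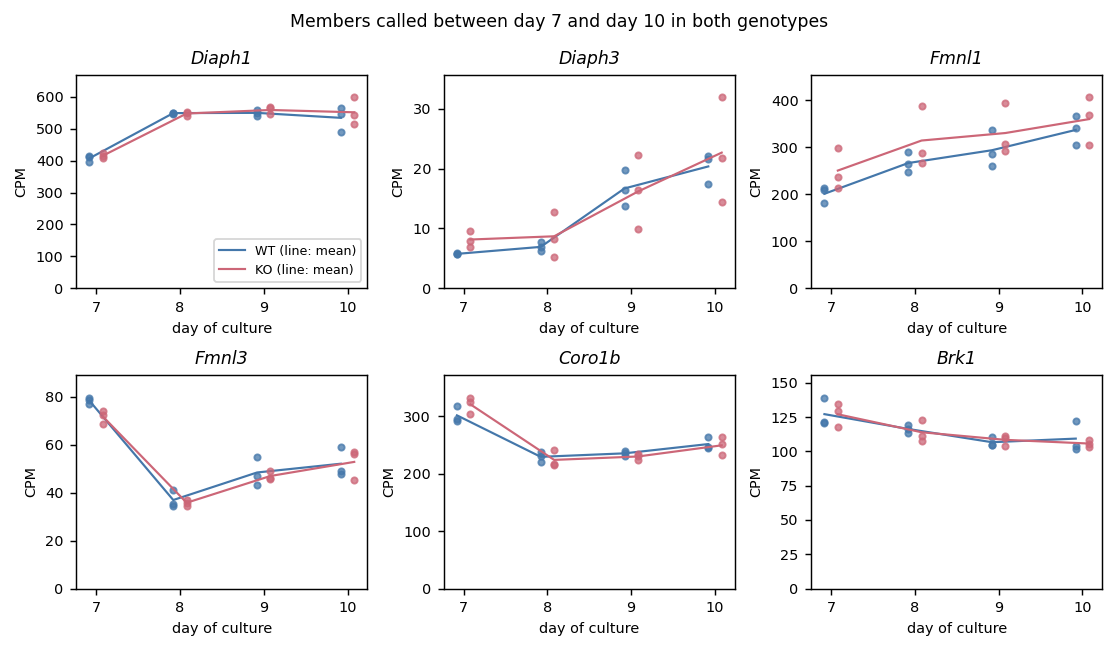
CPM of the 6 members called between day 7 and day 10 in both genotypes (vertical axes from 0) by day of culture, with 1 point per library and lines through group means. Diaph1 steps up by day 8, Diaph3 rises from day 9, the group means of Fmnl1 are higher on day 10 than on day 7, and Fmnl3 and Coro1b are lowest on day 8.

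In the WAVE complex, which relays Rac signals to Arp2/3, Abi3 and Cyfip2 fell by day 8 and rose again by day 10 in both genotypes. Abi3, 1 of the Abl-interactor subunits, was at 102, 98.4 and 97.2 CPM in WT on day 7, at 53.1, 46.1 and 53.9 on day 8 and at 85.5, 82.3 and 92.9 on day 10. The KO libraries were at 113, 106 and 123, then 48.5, 59.1 and 53, then 90.6, 73.5 and 93.2. All day 8 libraries lay below all libraries of days 7, 9 and 10. The fall to day 8 was -0.96 in WT (SE 0.099, edgeR adjusted p = 2.4e-07) and -1.09 in KO (SE 0.099, adjusted p = 4.8e-08), and the return to day 10 was 0.77 (adjusted p = 2.1e-05) and 0.68 (adjusted p = 0.00011). Each of these 4 calls held in all 16 alternatives. Day 10 against day 7 was called in KO (-0.41, adjusted p = 0.0025), though not on the TPM scale (-0.11, limma adjusted p = 0.5). Abi3 overlaps Zfp652 and Gngt2 on the opposite strand, which carry 124% and 99.5% of its own counts, and the strand setting of the counting is not given in the sources used here, so reads of these genes may not be separable.

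Cyfip2, 1 of the CYFIP subunits that bind Rac, showed the same course. It was at 156, 176 and 172 CPM on day 7 in WT, at 104, 119 and 107 on day 8 and at 157, 169 and 172 on day 10. In KO it was at 163, 185 and 172, then 113, 132 and 106, then 174, 169.6 and 158. Day 8 was separate from days 7 and 10 in both genotypes, which overlapped each other. The day 8 fall was -0.61 in WT (SE 0.089, edgeR adjusted p = 1.6e-05) and -0.57 in KO (SE 0.089, adjusted p = 3.6e-05). Cyfip1 did not follow: it was lower on day 10 than on day 7 in WT (-0.41, SE 0.095, adjusted p = 0.0021; -0.12 on the TPM scale, limma adjusted p = 0.16). As a share of their summed TPM, Cyfip2 went in WT from 50.7% ± 0.99 on day 7 to 41.4% ± 0.99, 50% ± 1.1 and 57.5% ± 0.96 (SD, n = 3), and in KO from 52.8% ± 5.2 to 41.3% ± 3.4, 48.5% ± 4.4 and 55% ± 3.3.

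Brk1, the smallest WAVE subunit, was at 121, 121 and 139 CPM in WT on day 7 and 104, 101 and 122 on day 10. KO had 117, 129 and 134 on day 7 and 103, 106 and 108 on day 10. The days overlapped in WT and were separate in KO. The change was -0.22 in WT (SE 0.074, edgeR adjusted p = 0.026) and -0.26 in KO (SE 0.074, adjusted p = 0.0082). On the TPM scale the sign turned (0.063 and 0.043, limma adjusted p = 0.47 and 0.62). The WT call was lost without mouse 63 (adjusted p = 0.13) or 65 (adjusted p = 0.15), with no filter on low counts (adjusted p = 0.11) and with only the groups compared (adjusted p = 0.079). The KO call was lost without the libraries numbered 68 (adjusted p = 0.063). Abi1 was lower on day 10 in WT (-0.24, adjusted p = 0.032), with the sign turned on the TPM scale (0.04, limma adjusted p = 0.77) and the call lost without any 1 of the 3 WT mice (adjusted p = 0.091, 0.15 and 0.12) or with no filter on low counts (adjusted p = 0.092). Nckap1, the broadly expressed scaffold at 8.55 to 12.1 CPM, was higher on day 10 in KO (0.5, adjusted p = 0.027). That call was lost without the libraries numbered 64 (0.39, adjusted p = 0.23) or 67 (0.49, adjusted p = 0.088), with only the groups compared (0.48, adjusted p = 0.056) and without the KO libraries with high Ddx3y (0.46, adjusted p = 0.11). Nckap1l, at 661 to 744 CPM in the group means, and Wasf2 (WAVE2), at 186 to 216 CPM, were called in 0 comparisons.

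The WASH complex held a single strong mover. Washc5 (strumpellin, ENSMUSG00000022350.7, chromosome 15, 59331997 to 59374167, minus strand), its large scaffold subunit, was at 109, 112 and 108 CPM on day 7 in WT, at 172, 190 and 168 on day 8 and at 114, 127 and 125 on day 10. In KO it was at 123, 117 and 119.8, then 175, 164 and 171, then 126, 143 and 124. All day 8 libraries lay above all others of days 7 and 10. The rise to day 8 was 0.68 in WT (SE 0.07, edgeR adjusted p = 2e-07) and 0.5 in KO (SE 0.07, adjusted p = 8.7e-06), and the later fall was -0.53 (adjusted p = 2.4e-05) and -0.38 (adjusted p = 0.00079). Washc1, which carries the Arp2/3-activating domain, and Washc2, which places the complex on endosomes, rose in WT on day 8 by 0.22 and 0.2 (adjusted p = 0.025 and 0.0075). The Washc1 call was lost without mouse 63 (0.17, adjusted p = 0.18) or 65 (0.24, adjusted p = 0.092), and the Washc2 call without mouse 65 (0.17, adjusted p = 0.087). With no filter on low counts both calls were lost (0.24 and 0.21, adjusted p = 0.075 and 0.059). Washc3 and Washc4 were called in 0 comparisons.

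**Figure D5:**
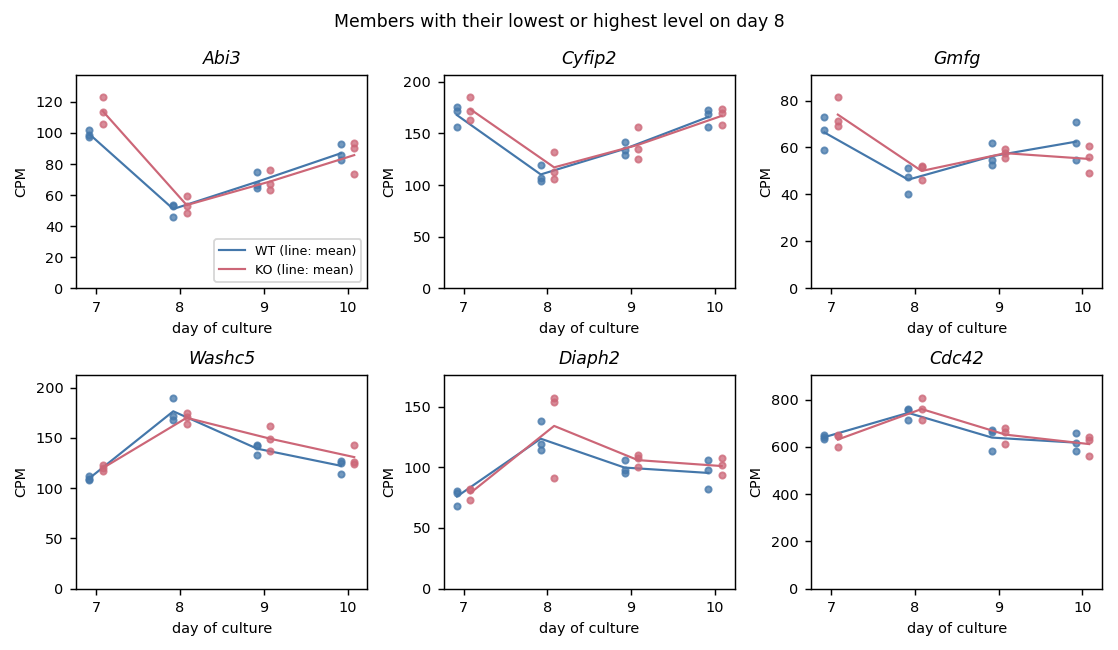
CPM of 6 members (vertical axes from 0) by day of culture, with 1 point per library and lines through group means. The group means of Abi3, Cyfip2 and Gmfg are lowest on day 8 and those of Washc5, Diaph2 and Cdc42 highest, in both genotypes.

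Some members left their day 7 level on day 8 and moved back by day 10. Those called from day 7 to day 8 and called in the opposite direction from day 8 to day 10, in both genotypes, were Abi3, Cyfip2, Washc5, Fmnl3 and Cdc42, or 5 of 37 (13.5%), against 10.4% of all genes tested. Both steps use the day 8 libraries, so their opposite signs are not independent. With only the day 8 and day 10 libraries of KO in the fit, Abi3 alone of the 5 stayed called between those days, and the edgeR adjusted p was 0.056 for Cyfip2 (0.51), 0.064 for Washc5 (-0.38), 0.052 for Fmnl3 (0.56) and 0.12 for Cdc42 (-0.32). In WT the day 8 to day 10 call of Cdc42 was lost on the TPM scale (-0.21, limma adjusted p = 0.06) and with no filter on low counts (-0.27, adjusted p = 0.055). Cells were replated on day 7, per the labels, and whether replating bears on these courses was not tested.

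Of the WASP group, Was rose to day 8 in WT (0.3, SE 0.075, edgeR adjusted p = 0.0031), a call that held in all 16 alternatives. In KO the same step was 0.085 (adjusted p = 0.39), and the difference between the 2 steps was not tested. Wasl fell in WT by day 8 (-0.44, SE 0.11, adjusted p = 0.0027) and day 10 (-0.41, adjusted p = 0.0063). On the TPM scale these were -0.2 (limma adjusted p = 0.21) and -0.12 (adjusted p = 0.45), and the day 10 call was also lost without mouse 65 (-0.31, adjusted p = 0.11) or 66 (-0.35, adjusted p = 0.051). Wipf1 (WIP), the partner that stabilises WASP, stayed at 207 to 232 CPM in the group means and was called in 0 comparisons.

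The proteins that protect or remove branches moved in different directions. Coro1b (ENSMUSG00000024835.15, chromosome 19, 4148619 to 4154035, plus strand), a coronin that promotes the replacement and debranching of Arp2/3 at branches, was at 296, 292 and 317 CPM in WT on day 7, at 230.3, 220 and 237 on day 8 and at 246, 245 and 264 on day 10. In KO it was at 305, 325 and 332, then 217, 214 and 240.3, then 232, 251.4 and 264. Day 7 lay above every later day shown in both genotypes. The fall to day 8 was -0.4 in WT (SE 0.063, edgeR adjusted p = 4.4e-05) and -0.52 in KO (SE 0.063, adjusted p = 2e-06), and was called in all 16 alternatives. Day 10 against day 7 gave -0.26 (adjusted p = 0.0029) and -0.36 (adjusted p = 0.00018). On the TPM scale the WT value turned to 0.022 (limma adjusted p = 0.79) and the KO value was -0.058 (adjusted p = 0.44). Coro1a, the coronin of blood cells, was higher on day 10 in WT (0.56, SE 0.16, adjusted p = 0.0087), a call lost without mouse 66 (0.52, adjusted p = 0.062). Coro1c was lower in WT between day 8 and day 10 (-0.29, SE 0.07, adjusted p = 0.0043), and that call was lost without mouse 63 (-0.23, adjusted p = 0.092) or 65 (-0.29, adjusted p = 0.053).

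Hcls1, which stabilises branches, rose to day 8 by 0.32 in WT (SE 0.078, edgeR adjusted p = 0.0025) and 0.36 in KO (SE 0.078, adjusted p = 0.00092). Cttn (cortactin), at 9.58 to 17.4 CPM in the group means, fell in WT on day 8 (-0.85, SE 0.26, adjusted p = 0.013), and each of the 3 WT mice left out ended the call (adjusted p = 0.11, 0.071 and 0.085). Gmfg, the blood-cell glia maturation factor, fell to day 8 by -0.52 in WT (SE 0.11, adjusted p = 0.00067) and -0.57 in KO (SE 0.11, adjusted p = 0.00032). The WT call was lost on the TPM scale (-0.29, limma adjusted p = 0.08). In WT it then returned (0.43, adjusted p = 0.0053), while in KO it stood at 55.1 ± 5.7 CPM on day 10 against 74 ± 6.43 on day 7 (-0.43, adjusted p = 0.0044), a call lost without the libraries numbered 67 (-0.28, adjusted p = 0.088) and on the TPM scale (-0.12, limma adjusted p = 0.47). The difference between genotypes in that change was -0.34 (SE 0.15, adjusted p = 0.78). Gmfg overlaps Samd4b on the opposite strand, which carries 105% of its counts. Gmfb was lower in KO on day 10 than on day 8 (-0.38, adjusted p = 0.03). That call was lost without the libraries numbered 64 (-0.33, adjusted p = 0.13) or 67 (-0.38, adjusted p = 0.07), with only the groups compared (-0.38, adjusted p = 0.17) and on the TPM scale (-0.28, limma adjusted p = 0.16).

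The GTPases moved little. Cdc42, the activator of WASP, rose to day 8 by 0.21 in WT (SE 0.076, edgeR adjusted p = 0.027) and 0.27 in KO (SE 0.076, adjusted p = 0.0074) and then fell (-0.27 and -0.31, adjusted p = 0.011 and 0.0056). The WT rise was lost without mouse 63 (0.26, adjusted p = 0.051), 65 (0.2, adjusted p = 0.13) or 66 (0.22, adjusted p = 0.11) and with no filter on low counts (0.23, adjusted p = 0.09). The KO rise was lost without the libraries numbered 64 (0.19, adjusted p = 0.15). The WT fall was lost without mouse 63 (-0.29, adjusted p = 0.05) or 65 (-0.22, adjusted p = 0.15) and the KO fall without the libraries numbered 68 (-0.31, adjusted p = 0.051). Rac2, the blood-cell Rac, fell on day 8 in KO (-0.29, adjusted p = 0.01). That call was lost without the libraries numbered 67 (-0.27, adjusted p = 0.065) or 68 (-0.28, adjusted p = 0.074), with only the groups compared (-0.27, adjusted p = 0.053) and on the TPM scale (-0.06, limma adjusted p = 0.64). Rac1, at 376 to 406 CPM in the group means, was called in 0 comparisons.

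The calls of the genotypes over time are set side by side here. The 6 members called from day 7 to day 10 in both were Brk1, Diaph1, Diaph3, Fmnl1, Fmnl3 and Coro1b, each in the same direction, which is 6 of the 12 called in WT and 6 of the 10 called in KO. They are 16.2% of the members, against 27.1% of all genes called in both genotypes in 1 direction. From day 7 to day 8 there were 10 such members, among 18 in WT and 12 in KO, or 27% of the members against 33.3% of all genes. The test of the difference in the day 7 to day 10 change called 0 of 37 members, against 0.0619% of all genes. At an unadjusted p under 0.05 there were 2 (5.41%), Inf2 and Gmfg, against 6.31% of all genes, and DESeq2 called 0, against 0.255% of all genes. The next was Spire1 (0.2, SE 0.12, edgeR adjusted p = 0.85). The median half-width of these intervals was 0.26 on the log2 scale, or 20%.

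Other genes of actin regulation were read from lists beside the members. Of 29 genes of elongation, capping and turnover, 8 rose and 5 fell from day 7 to day 10 in WT, where 18.9% of all genes rose and 18.1% fell, and 7 rose and 4 fell in KO (19.7% and 17.1% of all genes). Among them Enah, an Ena/VASP elongation factor, rose by 1.55 in WT and 2.09 in KO, while its relative Evl changed by -1.37 and -1.12. Of 11 further nucleation and formin genes tested, 1 rose and 4 fell in WT and 2 rose and 4 fell in KO, and the coronin Coro2a changed most in WT (1.09). Between KO and WT, day 7 alone had calls in the turnover and further nucleation lists: Ssh1 (0.24), Cfl2 (-0.43) and Dstn (-0.43) in turnover. On that day 1.45% of all genes were called. Of the 10 Arp2/3 subunits Arpc1b was called (0.43, adjusted p = 0.016).

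Markers of cell type moved over the same days. From day 7 to day 10, 7 of 10 dendritic cell markers rose in each genotype, and 8 of 12 macrophage markers fell in WT and 9 of 12 in KO, where 18.9% (WT) and 19.7% (KO) of all genes rose and 18.1% and 17.1% fell. The mannose receptor Mrc1 was the 1 macrophage marker that rose (0.64 in WT and 0.5 in KO, edgeR adjusted p = 0.003 and 0.017). Of 13 neutrophil and granule markers 6 rose and 2 fell in WT, with Camp at 1.25, and 0 rose and 2 fell in KO. Of 6 monocyte markers 2 rose in WT, Vcan (2.57) and Chil3 (0.98), and in KO 1 rose, Vcan (0.95), and 1 fell. Of 7 stromal and platelet markers, Pecam1 rose (1.33 in WT and 0.82 in KO) and Itga2b fell (-1.58 and -1.8) in both genotypes, and Col1a1 also fell in WT (-1.95). Of 8 tested mast cell, basophil and eosinophil markers, Epx rose (2.09 and 0.99) and Prss34 fell in KO (-1.6). Of 5 tested lymphocyte markers, each at 1.63 CPM or less, 1 rose and 1 fell in WT and 0 were called in KO. The summed macrophage markers went from 6250 to 7140 CPM on day 7 to 2950 to 3030 on day 10 in WT, and from 5580 to 8620 down to 2810 to 3870 in KO. The summed dendritic cell markers went from 2430 to 3020 up to 5370 to 7200 CPM in WT, and from 2730 to 3380 up to 4820 to 8230 in KO. No dendritic cell, macrophage, neutrophil or monocyte marker was at 0 in any library. The part of these shifts in the members' changes with time was not tested.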

How the data were processed

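Poly(A) RNA was sequenced from 24 libraries in 8 groups of 3 mice, grouped by the genotype and day labels. The authors deposited raw gene counts and TPM values. FastQC 0.11.9, STAR 2.6.1, DESeq2 1.22.2 and the build mm10 are named in the submitters' processing notes, without their roles; the counter and its strand setting are not given in the sources used here. The deposited counts were fitted with edgeR 4.0.16 (R 4.3.3): filterByExpr, TMM factors, a quasi-likelihood fit of all libraries with 1 coefficient per group, 16 residual degrees of freedom, 2-sided tests and Benjamini-Hochberg adjustment over 14535 genes at 0.05. The deposited TPM values served for levels between genes and, as log2(TPM + 1) or log2(TPM + 0.1), for limma 3.58.1.

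Members and lists were chosen with earlier results of these data known. Library values are given for the members called between genotypes (or the 3 smallest p per day where none was) and for up to 8 members with the largest change from day 7 to day 10 among those called in both genotypes with a mean of at least 5 CPM; values of the members that turned on day 8 were added after they were seen.

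Libraries held 19952047 to 31049798 counts. Reads carry no molecular identifiers, and p-values measure the spread between libraries of different mice within a group of genotype and day. Pairs of libraries of 1 group (24) differed beyond sampling noise, with a chi-square over its degrees of freedom of 7.1 to 125, and none was counted as a duplicate. The mouse numbers in the labels recur on each day, and the main fit treats all libraries as independent. Its p-values for comparisons of days therefore leave this pairing unused. Same-numbered libraries deviated together in WT (mean correlation 0.49, 0.43 and 0.29 over 11321 genes) and less so in KO (-0.11, -0.013 and 0.14). Alternatives were DESeq2 size factors, the DESeq2 1.42.0 Wald test, no filter, a mean count of at least 50, only the groups compared and both TPM settings. Others took the mouse number as a replicate block, or a block with KO numbers exchanged as earlier results on Ddx3y gave them. Each mouse number was also left out with its libraries of every day. Added after seeing the data was a fit with the KO libraries with high Ddx3y left out. The fit was tested on simulated data. Positions are from GENCODE M21 and promoters from RefSeq, both on GRCm38. One list of genes read beside the members is not reported here.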

Additional observations from a re-analysis of the deposited data

How the results depend on the processing

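Of 72 pairs of a member and a comparison that were called, 30 were called in all 16 alternatives and 4 changed sign in any: from day 7 to day 10, Brk1 in WT (0.063 with either TPM setting) and KO (0.043), Abi1 in WT (0.0402 with TPM + 1 and 0.0405 with TPM + 0.1) and Coro1b in WT (0.022); the TPM scale moved the median of all genes by a similar amount, as reported above. KO against WT on day 7 had 1 member called in place of 0 with the DESeq2 Wald test, with only the groups compared, and without the KO libraries with high Ddx3y. It had 0 to 1 with a mouse number left out, which gave 0 on the other days and in the interaction. From day 7 to day 10, leaving out 1 mouse number of either genotype gave 8 to 13 called members in WT (main 12) and 7 to 11 in KO (main 10). The called share of all genes was then 22% to 40.3% and 21.9% to 39.6%. Without WT mouse 63, 65 or 66 the WT count was 10, 8 or 9, each below the main count. Without the KO libraries numbered 64, 67 or 68 the KO count was 7, 11 or 8. TPM gave 20 in KO with either pseudocount (51.6% and 51.2% of all genes). From day 7 to day 8, leaving out a number gave 12 to 19 in WT (main 18, with 29.8% to 47.6% of all genes) and 11 to 13 in KO (main 12, with 31.9% to 39%). Without WT mouse 63, 65 or 66 the WT count was 12, 13 or 14. TPM gave 27 in KO (46% and 46.4%). From day 8 to day 10, leaving out a number gave 6 to 13 in WT and 6 to 12 in KO (main 10 each). In WT it was 6 without mouse 63 (14.5% of all genes), 7 without mouse 65 and 8 without mouse 66. In KO it was 6 without the libraries numbered 64 (11.6%) or 68 (8.67%). Each count of 6 is 16.2% of the members. There DESeq2 gave 16 in WT (32.3% of all genes called), only the groups compared gave 1 in KO (2.46%, against 25.4% in the fit of all libraries), and the replicate block with exchanged KO numbers gave 16 in each (38.9% and 34.3%). With the exchanged numbers the day 10 over day 7 calls numbered 18 (WT) and 15 (KO), where 44% and 44.1% of all genes were called, and the day 8 over day 7 calls 20 and 18 (49% and 47.8%), with a consensus correlation of 0.23 against 0.0046 for the labelled numbers. The labelled mouse number, which in KO goes against Ddx3y, as a replicate block gave 13 and 10 from day 7 to day 10 (WT, KO), 18 and 12 from day 7 to day 8, 10 and 10 from day 8 to day 10, and 0 between genotypes and in the interaction. In KO from day 8 to day 10 it ended the Diaph2 call (-0.37, limma adjusted p = 0.07). That call, -0.41 in the main fit, was lost in 9 of the 16 alternatives. The causes of these differences were not tested. With 3 libraries per group the intervals of KO against WT have a median half-width of 14%, and the adjustment over all genes left larger differences uncalled (Arpin on day 8, 47.7%, adjusted p = 0.49). Arpin, Nckap1, Cttn and Diaph3 have the lowest mean counts and wide intervals. Abi3, Gmfg, Fhod1, Cyfip1 and Rac1 overlap genes on the opposite strand that carry at least 20.1% of their counts.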
